A study of Mus musculus with 9 samples.

Results

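The enzymes that make poly(A) tails and the proteins that bind them were followed through an antibody recovery of testis RNA. The 8 genes were chosen as a family, with earlier results of these data known, and were found by matching the deposited gene identifiers to symbols in the mouse GENCODE annotation vM21. They were the poly(A) polymerases Papola, Papolb and Papolg and the poly(A)-binding proteins Pabpc1, Pabpc1l, Pabpc2, Pabpc4 and Pabpn1. These are 8 of the 55401 genes in the count table. Poly(A) RNA of testes of male WT mice was sequenced in 9 libraries, 3 in each of 3 groups. The methods name the WT animals as ICR mice. The input group was RNA that had met no antibody, the IgG group was RNA recovered on beads with a control immunoglobulin, and the acRIP group was RNA recovered on beads with an antibody against N4-acetylcytidine (ac4C), an acetylated form of cytidine in RNA. For the acRIP-seq libraries, the methods describe a β-globin probe containing ac4C that was transcribed in vitro and added to the poly(A) RNA. All groups were made into libraries by the Smart-seq2 method, in which cDNA is primed with oligo(dT) and amplified. By the methods, only input RNA was brought to a known concentration first, because what the beads released could not be quantified. The age of the mice, and whether the 3 libraries of a group came from separate mice or separate precipitations, are not given in the sources used here, so p-values measure the spread between these libraries, which may be technical.

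A nuclear poly(A) polymerase adds the tail after a transcript is cleaved, and PABPN1, the nuclear poly(A)-binding protein, stimulates it and helps to set the length. In the cytoplasm the PABPC proteins coat the tail, contact the translation initiation factor eIF4G and influence how fast the tail is removed. Male germ cells have testis forms of both families, since many mRNAs of spermatids are stored and translated after transcription has stopped.

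The members fall into genes with introns and genes without. Papolb (chromosome 5 of mm10, 142525838 to 142530076, minus strand), a cytoplasmic polymerase of spermatogenic cells, had 1 exon block and lies in an intron of Radil on the same strand, with 0 shared exonic bases. Pabpc2, a testis form of the cytoplasmic protein, also had 1 exon block. Papola (chromosome 12, 105784694 to 105838944, plus strand), the main nuclear polymerase, had 23 merged exon blocks, and Papolg (chromosome 11, 23862646 to 23895253, minus strand), a further nuclear polymerase, had 21. Pabpc1 (chromosome 15, 36595661 to 36609668, minus strand), the general cytoplasmic protein, had 15. Pabpc1l (chromosome 2, 164025450 to 164050538, plus strand), known from oocytes and early embryos, had 15, and Pabpc4 (chromosome 4, 123262351 to 123298925, plus strand), found in activated T cells and other tissues, had 17. Pabpn1 (chromosome 14, 54892500 to 54898169, plus strand) had 5.

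The paralogs are alike in their coding sequence, which bears on whether reads can be told apart. Over aligned coding bases, Papolb was 85.2% identical to Papola and Papolg was 69.6% identical to Papola. Pabpc2 was 83.2%, Pabpc4 73.1% and Pabpc1l 69.3% identical to Pabpc1. As an example of the polymerases, coding bases 301 to 330 of Papola are shown with the aligned bases of the other two, taken from GENCODE vM21 transcripts, and capitals mark bases that differ from Papola:
Papola: ggatcttacagactaggagtccacacgaaa
Papolb: ggCtcttacCgaTtaggagtAcacacgaaa
Papolg: ggatcttacagGctTggagtAcacacCaaa
Both paralogs differed from Papola at 4 of these 30 bases. The same positions of Pabpc1 are shown for the binding proteins, with capitals for bases that differ from Pabpc1:
Pabpc1: atattcattaaaaatttggacaaatccatc
Pabpc4: GtCttcatCaaGaaCCtggacaaatccatA
Pabpc1l: atCttTatCaaaaaCttggaGaaTtccatc
Pabpc4 differed at 7 of the bases and Pabpc1l at 6. Some members have far closer copies elsewhere in the genome. Of all 100-base windows of the transcript, 49.9% of those of Pabpc4 and 8.61% of those of Pabpc1 occurred without a mismatch at another place in the GRCm38.p6 genome, against 0% for the other members. The closest copy of Pabpc4, Gm10110 (GRCm38.p6 chromosome 14, 89897061 to 89899158, minus strand), was 99.3% identical over 2098 bases, and over the stretch shown it does not differ from Pabpc4:
Gm10110: gtcttcatcaagaacctggacaaatccata
Only uniquely mapped reads were counted, so Pabpc4 can be undercounted and its values are uncertain.

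In input, the cytoplasmic binding proteins of the testis led the family and the polymerases Papolb and Papola were nearly level by FPKM. Levels between genes are given in FPKM, which divides by gene length, here all annotated exons merged. This was 6595 bases for Papola, 4239 for Papolb, 6540 for Pabpc1 and 2586 for Pabpc2. The transcripts with the longest coding sequence have 4380, 4239, 2817 and 2586 bases, so levels between genes depend on the length used. Pabpc2 was at 495 ± 11.1 FPKM (SD, n = 3), Pabpc1 at 139 ± 1.001, Papolb at 32.9 ± 0.833 and Papola at 27.3 ± 0.894. Below them were Papolg at 4.07 ± 0.348 FPKM, Pabpn1 at 2.40 ± 0.199, Pabpc1l at 1.41 ± 0.304 and Pabpc4 at 0.144 ± 0.0705. No 2 neighbours in this order overlapped between input libraries. The order was the same in IgG except that Pabpn1 (5.14 ± 0.292 FPKM) stood above Papolg (2.09 ± 0.198), and again no neighbours overlapped. In acRIP the order was that of input, but Papolg (2.08 ± 0.237 FPKM), Pabpn1 (1.77 ± 0.462) and Pabpc1l (1.58 ± 0.305) overlapped with their neighbours. Pabpc6, another intronless gene of the cytoplasmic family that was not among the 8 members, was at 179 ± 7.70 FPKM in input. By FPKM it stood between Pabpc2 and Pabpc1, but it had fewer counts than Pabpc1 in each input library. The lengths were 3223 bases for Pabpc6 and 6540 for Pabpc1.

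**Figure D1:**
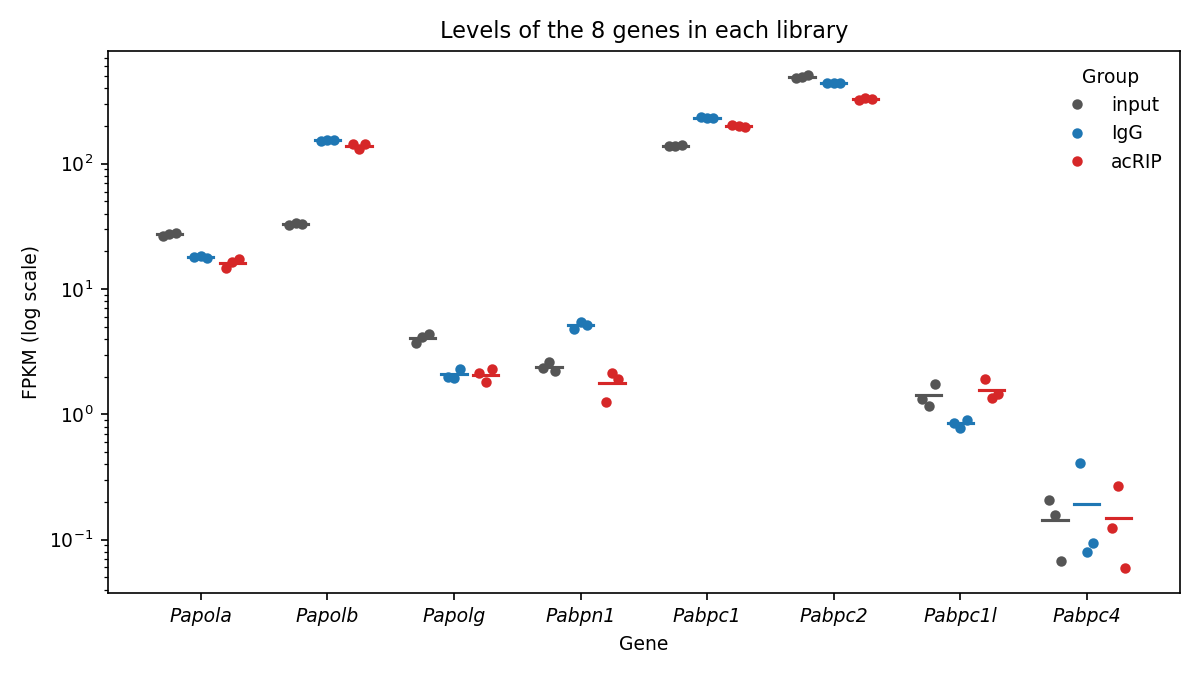
FPKM (log axis) of the 8 genes in each of the 9 libraries, with points for libraries and short lines for group means. Papolb sits near 32.9 FPKM in input and at 154 in IgG and 139 in acRIP, whereas Pabpn1 is highest in IgG and the points of Pabpc4 spread widely in every group.

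The summed counts of a library lay between 22023925 and 31340090 in input, between 14647542 and 18786779 in IgG, and between 16025779 and 18639134 in acRIP. Low counts were mostly even (81.9% to 84.3% of counts from 1 to 20), as happens when both reads of a pair are counted, so fewer molecules than counts lie behind a value. Marker genes of spermatids summed to between 20670 and 23550 CPM (counts scaled to a common library total) in every library, and those of epididymis epithelium to at most 4.18, with Lcn5 and Adam7 at 0 in all. Spermatocyte markers summed to 722 to 745 CPM in input, 705 to 738 in IgG and 530 to 558 in acRIP. Sertoli markers summed to 106.2 to 111.9 CPM in input, 101.3 to 105.3 in IgG and 112.0 to 118.2 in acRIP, with Rhox5 at 0 in all groups. Spermatogonia markers summed to 47.7 to 52.6 CPM in input, 59.0 to 61.3 in IgG and 36.4 to 46.1 in acRIP. Leydig markers summed to 1045 to 1076 CPM in input, 940 to 957 in IgG and 876 to 902 in acRIP, and macrophage markers to 20.6 to 22.9, 24.4 to 26.2 and 28.1 to 31.2. The groups did not overlap for Sertoli, spermatogonia, Leydig and macrophage markers, and spermatocyte markers were lowest in acRIP. The low sums of epididymis markers were also lowest in acRIP, at 0.358 to 1.12 CPM. They were 1.78 to 2.77 in IgG and 2.30 to 4.18 in input. The part of cell type mixture in the results below was not tested. The bead groups were recovered from RNA already extracted, so their sums describe the transcripts recovered. In bulk testis RNA itself, fewer cells of a type and less RNA per cell cannot be told apart.

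Papolb was the polymerase that rose over input on both kinds of beads. Its counts were 4272, 3156 and 3083 in input, 9496, 12230 and 12249 in IgG, and 9716, 10402 and 10206 in acRIP. In FPKM these were 32.2, 33.8 and 32.8 in input, 153, 154 and 155 in IgG, and 143, 132 and 144 in acRIP. Every IgG and acRIP library was thus above every input library, and the acRIP libraries were slightly below the IgG libraries. Papolb rose 4.78-fold in IgG over input (log2 fold change 2.26, SE 0.04, adjusted p = 5.79e-30 from edgeR) and 4.48-fold in acRIP over input (2.16, SE 0.04, adjusted p = 1.67e-29 from edgeR). Between acRIP and IgG it fell by 0.09 on the log2 scale (SE 0.04, adjusted p = 0.0286 from edgeR). This last call was lost under several settings, with an adjusted p of up to 0.294 over other settings and, with single libraries left out, 0.0650 without IgG replicate 2, 0.0739 without IgG replicate 3 and 0.226 without acRIP replicate 2. Radil, the gene around it, fell against input (adjusted p = 0.00138 in IgG and 2.26e-06 in acRIP from edgeR), at 6.78 ± 0.214 FPKM there (SD, n = 3), 5.11 ± 0.152 in IgG and 4.22 ± 0.353 in acRIP.

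The nuclear polymerases fell on the beads of both kinds. Papola was at 26.3, 27.5 and 28.1 FPKM in input, 18.1, 18.3 and 17.6 in IgG, and 14.7, 16.4 and 17.4 in acRIP, so the input libraries lay above all others. It fell by 0.57 in IgG against input (log2, SE 0.05, adjusted p = 6.91e-11 from edgeR) and by 0.68 in acRIP against input (SE 0.05, adjusted p = 9.33e-13 from edgeR). Papolg was at 3.71, 4.12 and 4.40 FPKM in input, 1.99, 1.97 and 2.32 in IgG, and 2.14, 1.82 and 2.28 in acRIP. It fell by 0.93 in IgG against input (log2, SE 0.13, adjusted p = 4.71e-07 from edgeR) and by 0.89 in acRIP against input (SE 0.13, adjusted p = 5.58e-07 from edgeR). Neither nuclear polymerase passed the test between acRIP and IgG, where the log2 fold change was -0.11 for Papola (SE 0.06, adjusted p = 0.0955 from edgeR) and 0.03 for Papolg (SE 0.14, adjusted p = 0.848 from edgeR). Without acRIP replicate 3, Papola was at -0.15 and passed (adjusted p = 0.0303 from edgeR). Papolg shares 91 exonic bases, 1.66% of its length, with the antisense gene Gm12061, which had 30 to 121 counts per library, and reads there cannot be assigned without knowing whether strand was used.

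The abundant cytoplasmic binding proteins Pabpc1 and Pabpc2 moved in opposite directions against input. Pabpc1 was at 139, 138 and 140 FPKM in input, 237, 230 and 233 in IgG, and 203, 200 and 197 in acRIP. It rose 1.71-fold in IgG (log2 fold change 0.77, SE 0.03, adjusted p = 1.31e-20 from edgeR) and 1.52-fold in acRIP over input (0.60, SE 0.03, adjusted p = 8.27e-18 from edgeR). Pabpc2 was at 485, 493 and 507 FPKM in input, 441, 442 and 442 in IgG, and 324, 334 and 329 in acRIP. The acRIP libraries were the lowest, and no groups overlapped. Pabpc2 fell by 0.13 in IgG (log2, SE 0.03, adjusted p = 0.000546 from edgeR) and by 0.51 in acRIP against input (SE 0.03, adjusted p = 1.33e-15 from edgeR). Both genes were lower in acRIP than in IgG, Pabpc1 by 0.17 (log2 fold change -0.17, SE 0.03, adjusted p = 1.16e-05 from edgeR) and Pabpc2 by 0.38 (-0.38, SE 0.03, adjusted p = 1.32e-11 from edgeR).

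Pabpc1l was the single member higher in acRIP than in IgG. Its counts were 113, 70 and 106 in input, 34, 40 and 46 in IgG, and 84, 69 and 66 in acRIP. In FPKM it was at 1.32, 1.17 and 1.75 in input, 0.852, 0.782 and 0.908 in IgG, and 1.92, 1.36 and 1.44 in acRIP. The IgG libraries were the lowest, while those of input and acRIP overlapped. Pabpc1l rose 1.92-fold in acRIP over IgG (log2 fold change 0.94, SE 0.28, adjusted p = 0.00385 from edgeR), just under 2-fold, and without acRIP replicate 2 or replicate 3 its log2 fold change was 1.04 or 1.01, past it. It fell by 0.71 in IgG against input (log2, SE 0.27, adjusted p = 0.0303 from edgeR), a call lost when any of 4 single libraries was left out, with adjusted p-values of 0.0508 without input replicate 1, 0.167 without input replicate 3, 0.0586 without IgG replicate 1 and 0.0855 without IgG replicate 2. Against input, acRIP gave 0.23 (SE 0.26, adjusted p = 0.423 from edgeR).

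Pabpc4 had few counts, and none of its differences passed the test. It had 26, 14 and 6 counts in input, 24, 6 and 7 in IgG, and 8, 20 and 4 in acRIP, and all groups overlapped. Its log2 fold changes were 0.39 in IgG against input (SE 0.69, adjusted p = 0.663 from edgeR), 0.14 in acRIP against input (SE 0.69, adjusted p = 0.869 from edgeR) and -0.25 in acRIP against IgG (SE 0.71, adjusted p = 0.775 from edgeR). The near copy Gm10110 had 2 to 14 counts per library.

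Pabpn1, the nuclear binding protein, was high in IgG and not in acRIP. Its counts were 224, 175 and 150 in input, 215, 309 and 291 in IgG, and 61, 121 and 98 in acRIP. In FPKM it was at 2.36, 2.62 and 2.23 in input, 4.84, 5.42 and 5.16 in IgG, and 1.25, 2.14 and 1.93 in acRIP. The IgG libraries lay above all others, and every acRIP library was below every input library. Pabpn1 rose 2.19-fold in IgG over input (log2 fold change 1.13, SE 0.17, adjusted p = 1.39e-06 from edgeR) and fell by 1.48 in acRIP against IgG (log2, SE 0.18, adjusted p = 3.26e-08 from edgeR). The acRIP against input difference was -0.35 (log2, SE 0.18, adjusted p = 0.0900 from edgeR), which did not pass. It was -0.51 and passed without acRIP replicate 2 (adjusted p = 0.0282 from edgeR), and was -0.15 without acRIP replicate 1 (adjusted p = 0.483 from edgeR). The readthrough gene Gm20521 shares 651 exonic bases, 21.4% of the length of Pabpn1, and was at 0 in all 9 libraries. Any reads in the shared bases were thus not counted for Gm20521, and whether they were counted for Pabpn1 is not known. If they were dropped, the FPKM of Pabpn1, which divides by its full length, is too low beside other genes.

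**Figure D2:**
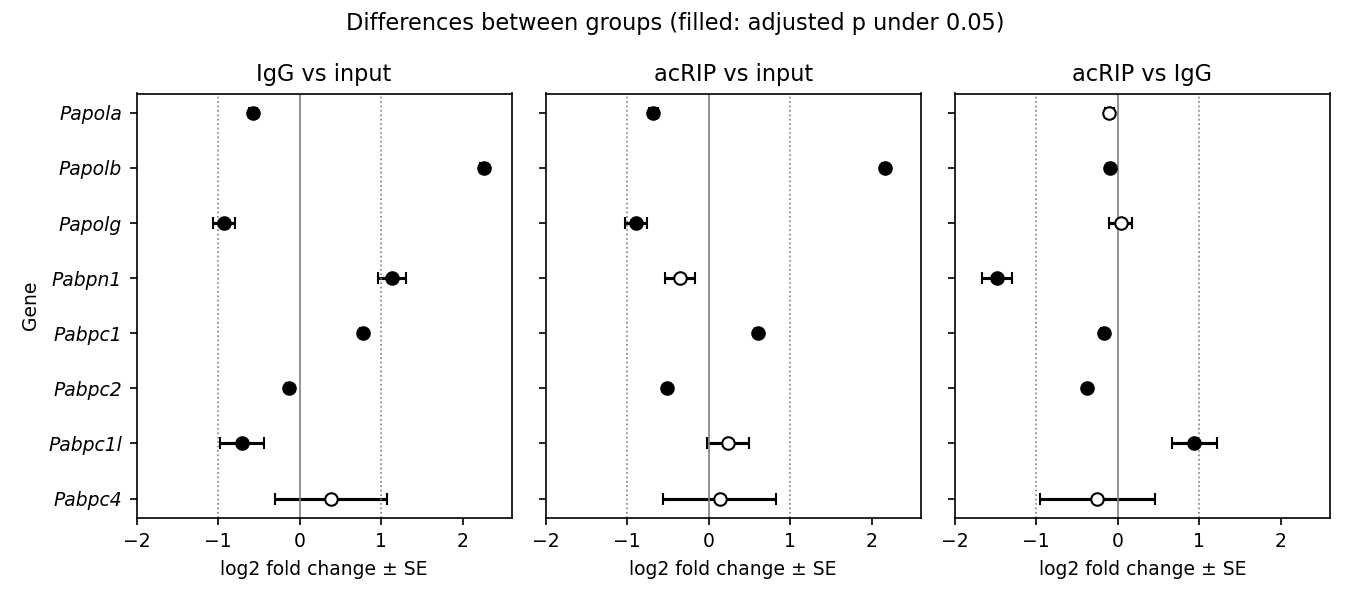
Log2 fold change (x axis, with SE) of each of the 8 genes in the 3 comparisons, from edgeR's test over 9 libraries, with filled points for adjusted p under 0.05 and dotted lines at 2-fold. Papolb is past 2-fold over input in IgG (2.26) and in acRIP (2.16), and Pabpn1 is past 2-fold in IgG over input (1.13) and in acRIP below IgG (-1.48).

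All 8 members passed the filter on low counts. In IgG against input, 3 members rose (25.9% of the 22510 tested genes did) and 4 fell (26.0% of tested genes). Over 2-fold, 2 members rose, Papolb and Pabpn1 (13.5% of tested genes), and 0 fell (7.22%). In acRIP against input, 2 members rose, Papolb and Pabpc1 (32.0% of tested genes), and 3 fell, Papola, Papolg and Pabpc2 (40.3%). Over 2-fold, 1 rose (17.7%) and 0 fell (22.9%). In acRIP against IgG, 1 member rose (26.4% of tested genes) and 4 fell (37.6%), and over 2-fold 0 rose (11.5%) and 1 fell (20.9%). The median log2 fold change of the 8 members was 0.13 in IgG against input, -0.11 in acRIP against input and -0.14 in acRIP against IgG, beside -0.01, -0.10 and -0.09 over all tested genes. Against IgG and input at once, 0 of the 8 members were over 2-fold higher in acRIP (7.88% of tested genes) and 0 were over 2-fold lower (17.0%). Each of these counts of 0 by edgeR was also 0 at an unadjusted p under 0.05 with the same fold limit, and by DESeq2. The 3 comparisons share libraries, so their values are given side by side and are not independent.

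Ratios between paralogs within a library do not depend on how libraries are scaled. They depend on the gene lengths used, whereas their log2 differences between groups do not. Papolb over Papola, as counts per length, was 1.22, 1.23 and 1.17 in input, 8.45, 8.40 and 8.85 in IgG, and 9.72, 8.05 and 8.26 in acRIP. By these lengths, 6595 merged exonic bases for Papola and 4239 for Papolb, the pair was near parity in input, with the testis form in excess on both kinds of beads. Papola had more counts than Papolb in every input library, so the order and the share in input depend on the length used. The ratio was 7.11-fold higher in IgG than in input (log2 difference 2.83, SE 0.03) and 7.18-fold higher in acRIP than in input (2.84, SE 0.09), with no overlap in either (p = 0.1, exact two-sided permutation test, the smallest that 3 against 3 allows, and 0.188 after Benjamini-Hochberg adjustment over 15 comparisons of ratios). Papolb made up 51.2% ± 0.837 (SD, n = 3) of the summed FPKM of the 3 polymerases in input, 88.5% ± 0.169 in IgG and 88.4% ± 0.895 in acRIP. Between acRIP and IgG the log2 ratio differed by 0.01 (SE 0.09, p = 1.0, exact permutation test, adjusted p = 1.0), and the libraries overlapped.

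Pabpc2 over Pabpc1 was highest in input and lowest in acRIP. The ratio was 3.48, 3.56 and 3.61 in input, 1.86, 1.92 and 1.90 in IgG, and 1.60, 1.67 and 1.67 in acRIP, with no overlap between any groups. On the log2 scale it was lower by 0.91 in IgG than in input (difference -0.91, SE 0.02), by 1.11 in acRIP than in input (-1.11, SE 0.03) and by 0.20 in acRIP than in IgG (-0.20, SE 0.03), each with p = 0.1 and an adjusted p of 0.188 by the exact permutation test. Pabpc2 made up 77.8% ± 0.309 (SD, n = 3) of the summed FPKM of the 4 cytoplasmic members in input, 65.3% ± 0.411 in IgG and 62.0% ± 0.625 in acRIP. With Pabpc6 added to the sum, these shares were 60.7%, 55.0% and 51.3%. The ratios and shares rest on lengths of 6540 merged exonic bases for Pabpc1 and 2586 for Pabpc2. The Pabpc1 transcript with the longest coding sequence has 2817 bases, and by that length Pabpc2 would be lower beside Pabpc1 in every library. In each IgG and acRIP library, Pabpc1 had more counts than Pabpc2. Pabpc1l was far below Pabpc1 in every library, with a log2 ratio of -6.64 ± 0.291 (SD, n = 3) in the input libraries, -8.11 ± 0.0990 in those of IgG and -7.01 ± 0.252 in those of acRIP. The IgG libraries overlapped with neither other group, and the log2 ratio was higher by 1.10 in acRIP than in IgG (SE 0.16, p = 0.1, exact permutation test, adjusted p = 0.188). Papolg over Papola was lower in IgG than in input with no overlap (log2 difference -0.36, SE 0.10, p = 0.1, exact permutation test, adjusted p = 0.188), and Pabpc4 over Pabpc1 overlapped in all comparisons.

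**Figure D3:**
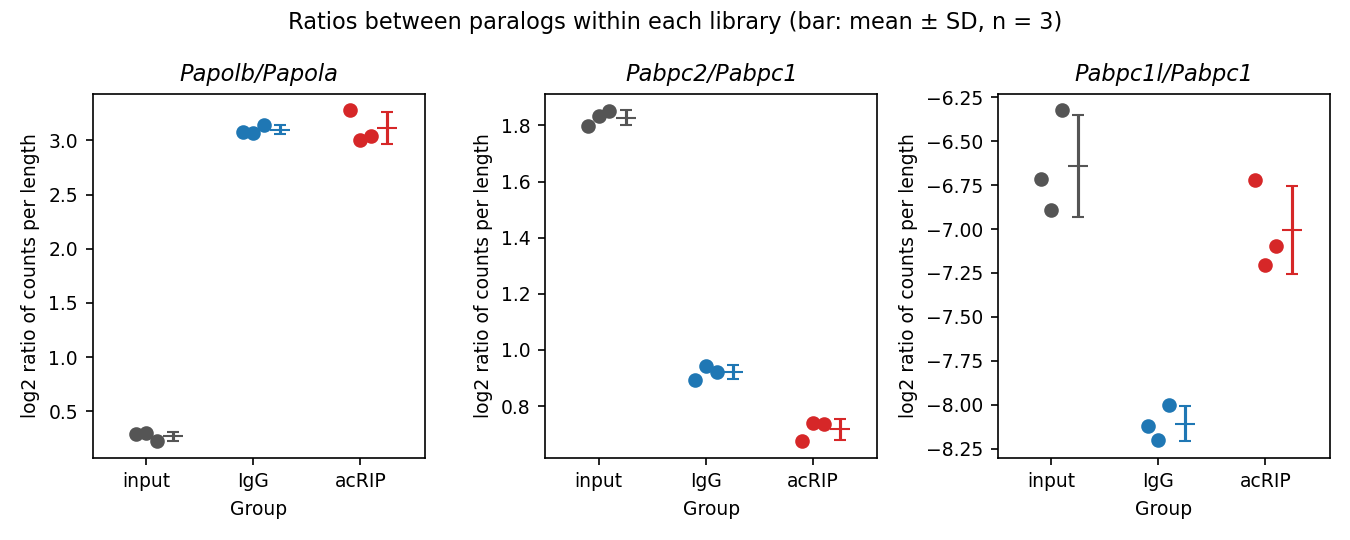
Log2 ratio of counts per length within each library for 3 pairs of paralogs, by group, with points for libraries and bars for mean ± SD (n = 3), each panel on its own axis. Papolb/Papola is near 0.27 in input and 3.10 to 3.11 in the bead groups, Pabpc2/Pabpc1 falls from 1.83 to 0.92 and 0.72, and Pabpc1l/Pabpc1 is lowest in IgG.

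Reads were also counted on genes whose span overlaps a copy of Pabpc1. Gm16580, whose locus holds a copy of Pabpc1 (GRCm38.p6 chromosome 17, 26269344 to 26270824, plus strand, 97.7% identical over 1492 aligned bases), was at 47.4 ± 3.04 FPKM in input (SD, n = 3), 131 ± 7.46 in IgG and 126 ± 3.98 in acRIP. Gm16580 rose 2.82-fold in IgG over input (log2 SE 0.06, adjusted p = 2.63e-20 from edgeR) and 2.83-fold in acRIP over input (log2 SE 0.06, adjusted p = 2.18e-20 from edgeR), beside 1.71-fold and 1.52-fold for Pabpc1. Gm8276 on chromosome 3 (94.7% identical over 1734 aligned bases) was at 9.50 ± 0.201 FPKM in input, 15.2 ± 1.27 in IgG and 13.3 ± 0.837 in acRIP. At the chromosome 17 locus, reads were further counted on Luc7l (309 to 642 per library) and on AC126438.2, which had 0, 1 and 1 counts in input, 2, 4 and 8 in IgG and 25, 24 and 11 in acRIP. Gm43973, at a shorter copy on chromosome 6, was at 0 in all libraries but acRIP replicate 2, with 4 counts. Each of these genes was counted over all its exons, so its reads need not lie on the copy. How many of these reads came from Pabpc1 was not tested.

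The other genes of the tail pathway went in both directions. Of 65 listed genes, 63 were tested. In acRIP against IgG, 21 of the 63 rose and 22 fell (26.4% and 37.6% of all tested genes), and 2 rose and 7 fell over 2-fold (11.5% and 20.9%). In acRIP against input, 30 rose and 19 fell (32.0% and 40.3% of all tested genes), and 14 and 7 did so over 2-fold (17.7% and 22.9%). In IgG against input, 29 rose and 19 fell (25.9% and 26.0%), and 16 and 2 did so over 2-fold (13.5% and 7.22%). The median log2 fold changes of the listed genes were -0.05, 0.29 and 0.17, beside -0.09, -0.10 and -0.01 over all tested genes.

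Among 5 other poly(A)-binding proteins, 3 were tested and Pabpc4l and Pabpn1l were too low to be tested. Pabpc6 fell in all comparisons, by 0.47 in IgG against input (log2, SE 0.04, adjusted p = 3.16e-12 from edgeR), by 0.61 in acRIP against input and by 0.14 in acRIP against IgG, where the call was lost with log2(FPKM + 0.1) (adjusted p = 0.0859 from limma). Pabpc5, named after its values were seen, was at 0 in all IgG libraries and had 24, 8 and 16 counts in input and 30, 14 and 20 in acRIP. With 3 counts as the floor of each IgG library, the mean rate of Pabpc5 in acRIP was 7.26-fold higher. With 6 counts, as for 3 read pairs, it was 3.63-fold higher. These folds take the few acRIP counts as exact, so they are not strict lower limits. Against input, acRIP did not pass for Pabpc5 (log2 fold change 1.10, SE 0.60, adjusted p = 0.103 from edgeR).

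Of the 11 non-canonical polymerases and terminal nucleotidyltransferases, which extend tails or add other nucleotides, 3 rose and 5 fell in acRIP against IgG (26.4% and 37.6% of all tested genes). Against input, 6 rose and 4 fell in IgG (25.9% and 26.0% of all tested genes). In acRIP against input, 5 rose and 6 fell (32.0% and 40.3%). Tent4a, which can add mixed tails, rose over IgG (log2 fold change 1.11, SE 0.23, adjusted p = 0.000114 from edgeR) and over input (2.31, SE 0.24, adjusted p = 6.59e-10 from edgeR). Its counts were 48, 50 and 58 in input, 82, 66 and 96 in IgG and 128, 190 and 193 in acRIP. Tent5a had 0, 2 and 0 counts in acRIP against 46, 56 and 72 in IgG and 44, 22 and 14 in input, which as summed counts per total gives IgG over acRIP a ratio of 86.0. The 95% exact counting interval was 15.0 to 3440 with counts halved to read pairs, chosen after seeing the data, and 23.5 to 716 if each count is taken as independent. Tent2, the cytoplasmic polymerase known as GLD-2, fell against IgG by 1.70 (log2, SE 0.18, adjusted p = 2.32e-09 from edgeR) and against input by 1.81 (SE 0.18, adjusted p = 1.42e-10 from edgeR).

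Of the 17 cleavage and polyadenylation factors, 8 rose and 6 fell in acRIP against IgG (26.4% and 37.6% of all tested genes). Cpsf3, the endonuclease that cuts the transcript, fell by 1.27 against IgG (log2, SE 0.09, adjusted p = 1.12e-12 from edgeR) and by 1.52 against input (SE 0.09, adjusted p = 9.82e-16 from edgeR). Of the 16 genes listed as deadenylases and their cofactors, 3 rose and 6 fell against IgG, read against the same shares. Noct and Pnldc1 were on this list and among those that fell. Pan2, a catalytic deadenylase, fell by 1.99 against IgG (log2, SE 0.23, adjusted p = 9.44e-09 from edgeR) and by 2.85 against input, and Cnot9, a subunit of the CCR4-NOT complex, fell by 1.21 and 1.13. Of the 12 partners of the binding proteins, 5 rose and 2 fell against IgG with 0 over 2-fold, and of the 4 cytoplasmic polyadenylation element-binding proteins, 1 rose, Cpeb4 (log2 fold change 0.28), and 1 fell, Cpeb3 (-0.33), with 0 over 2-fold, again beside 26.4% and 37.6% of all tested genes and 11.5% and 20.9% over 2-fold.

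By Pearson's r of log2 CPM over the 9 libraries, the genes most like Papolb were Nudt4, Rps2-ps13, Psip1, Rnf19b and Cnot11, with r of 0.9989 to 0.9993. Cnot11, a subunit of the CCR4-NOT complex, had log2 fold changes of 2.56 in IgG and 2.51 in acRIP against input, beside 2.26 and 2.16 for Papolb. Over all 22510 tested genes, 258 had r over 0.99 with Papolb. Those most like Pabpc1 were Mcrip1, Vps37a, Marcksl1, Dot1l and Ppp1r12c, with r of 0.9976 to 0.9986, and 130 tested genes had r over 0.99. The points share the 3 groups, so these correlations describe the pattern of group means and carry no p-value.

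The share of G and C in the transcript was 43.0% in Papola, 41.6% in Papolb and 39.8% in Papolg. It was 47.8% in Pabpc1, 46.8% in Pabpc2, 54.8% in Pabpc1l, 54.1% in Pabpc4 and 56.6% in Pabpn1. Papola and Papolb, which moved in opposite directions against input, had transcripts of 4380 and 4239 bases. Pabpc1 and Pabpc2, which also did so, had transcripts of 2817 and 2586 bases. These are single transcripts, those with the longest coding sequence. The merged exons used as gene length had 6595 and 4239 bases for Papola and Papolb, and 6540 and 2586 for Pabpc1 and Pabpc2. Pabpc1 and Pabpc1l also moved in opposite directions, in IgG against input and in acRIP against IgG. They differed more in their share of G and C than those pairs. The call of Pabpc1l in IgG against input was lost when some single libraries were left out. Of the 2 intronless members, Papolb rose and Pabpc2 fell against input in both bead groups. Pabpc6, intronless and not a member, fell against input by 0.47 in IgG and 0.61 in acRIP (log2). The pairs were picked for their directions, and whether base composition, length or introns bear on recovery was not tested.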

How the data were processed

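The authors deposited 1 table of raw counts per gene for all 9 libraries. The submitters' processing notes and the methods name Trim Galore 0.6.7 for trimming, STAR 2.7.10a for mapping to mm10 and featureCounts 2.0.2 for counting uniquely mapped reads. The annotation release, the strand setting and the handling of read pairs are not given in the sources used here. FPKM was computed here from the deposited counts, the listed gene lengths and the total count of each library. The quasi-likelihood test of edgeR 4.0.16 (R 4.3.3) was applied after filterByExpr and TMM, with a mean for each group, in a fit of all 9 libraries, and p-values were adjusted by Benjamini-Hochberg over the 22510 genes tested. "Rose" and "fell" mean an adjusted p under 0.05. SE is the log2 fold change over the square root of F. Scripts were tested on simulated data. Alternatives were RLE and upper quartile normalization, no filter, DESeq2 1.42.0, only the libraries compared, a replicate block, limma 3.58.1 on log2(FPKM + 1) and log2(FPKM + 0.1), halved counts, a test against 2-fold and each library left out. The test against 2-fold was added after the data were seen. Copies were found with blastn against GRCm38.p6.

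The members and lists were chosen with earlier results of these data known. Of 55401 identifiers, 55141 matched GENCODE vM21. Named genes were the 8 members, genes overlapping them or copying them, listed genes over 2-fold in acRIP against both other groups in 1 direction (up to 3 per list), and the 5 genes most like Papolb and Pabpc1. Genes at copies of members, Pabpc5, Pabpc6 and those named for a count were added after values were seen. Counting intervals cover counting error only. No protein sequences were used here.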

Additional observations from a re-analysis of the deposited data

How the results depend on the processing

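The direction and call of Papolb, Papola, Papolg and Pabpc1 against input, in IgG and in acRIP, and of Pabpc1, Pabpc2, Pabpc1l and Pabpn1 between acRIP and IgG, were kept under all alternatives run except the test against 2-fold, which asks for more than a difference. Papolb against IgG lost its call under 9 alternatives (log2 fold change -0.14 to -0.05). The count of members over 2-fold higher in acRIP than in IgG ranged from 0 to 1 with a library left out (Pabpc1l). In IgG against input, members over 2-fold higher numbered 1 with log2(FPKM + 1) and 1 with the test against 2-fold, since Pabpn1 dropped out, and members over 2-fold lower numbered 1 under upper quartile normalization (Papolg, log2 fold change -1.02) and 0 to 1 with a library left out. Pabpc2 in IgG against input lost its call with log2(FPKM + 0.1), at -0.16. Values within error changed sign: Papolg in acRIP against IgG was -0.0079 with log2(FPKM + 1) and -0.012 with log2(FPKM + 0.1), and -0.026 to 0.12 with a library left out. Pabpc4 in acRIP against input was -0.0044 with log2(FPKM + 0.1) and ranged from -0.58 to 0.53 with a library left out, from -0.98 to 0.85 in acRIP against IgG and from -0.70 to 0.77 in IgG against input. The log2 ratio of Papolb to Papola differed between acRIP and IgG by -0.071 to 0.065 with a library left out, and that of Pabpc4 to Pabpc1 by -0.53 to 0.75. The causes were not tested. Same-numbered libraries of different groups did not deviate together (correlations of -0.007 to 0.035, beside -0.0295 to 0.0271 for other numbers). The correlation weighs all tested genes alike, those with low counts included, so it cannot decide whether same-numbered libraries share a source. With the replicate block, Papolb in acRIP against IgG was at -0.09 (adjusted p = 0.0182 from edgeR), and no call of a member changed. Of the members, Pabpc4 had the fewest counts, at 4 to 26 per library, and the largest errors.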
